A study of Mus musculus with 30 samples.

Results

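H3K27ac, acetylation of lysine 27 of histone H3, was compared between microglia with Mir137 intact (cWT) and microglia in which Mir137 was deleted (cKO). The members described here are all regions of the cWT-specific and the cKO-specific H3K27ac lists, 7842 of the 22399 regions that the series lists for 5 antibodies. The cWT-specific list holds 6995 regions and the cKO-specific list 847. Both genotypes were C57BL/6J mice 8 weeks old that carried Tmem119-CreERT2, a Cre recombinase driven by the microglial gene Tmem119 and switched on by tamoxifen, and both received tamoxifen for 7 consecutive days. cWT mice were Mir137+/+;Tmem119-CreERT2 and cKO mice were Mir137loxP/loxP;Tmem119-CreERT2. The series has no group without Cre or tamoxifen. About 100000 sorted primary microglia per genotype were profiled with 3 replicates per antibody. The series text speaks of 4 adult mice, and the labels do not say whether a replicate was a mouse. The labels' protocol is CUT&Tag, in which an antibody guides a transposase to the chromatin it binds, whereas the series calls the assay ChIP-seq. In that protocol 1 catalogue number stands for the antibodies to Pol II, Ser5P (the polymerase with phosphoserine 5 in its tail) and H3K27ac, and another for those to Pu.1 and H3K4me3.

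H3K27ac is deposited by the acetyltransferases CBP and p300, removed by histone deacetylases and read by bromodomain proteins. It marks promoters and enhancers in an active state. Microglial enhancers carrying it are typically bound by the myeloid factor PU.1 together with factors of the AP-1, MEF2, IRF and SMAD families, and TGF-beta signalling maintains the microglial set. MicroRNAs such as miR-137 act through their seed, the bases by which they pair with a target.

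The lists hold no value for a single replicate, so no difference below could be set against the spread between replicates, and no test was made. A region in a list is one that the authors deposited as specific to that genotype. How it was selected is not stated. Shares are given with exact Clopper-Pearson intervals of 95%, which cover counting error only. Depth is unknown.

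The sequence of the deleted microRNA is shown first because it defines the cKO cells. Both mature arms are given 5′ to 3′ from RefSeq (GRCm38.p6), with the seed, bases 2 to 8, in capitals. The 3p arm lies at chr3:118433901-118433923 and the 5p arm at chr3:118433865-118433887, both on the plus strand.
mmu-miR-137-3p: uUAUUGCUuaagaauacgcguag
mmu-miR-137-5p: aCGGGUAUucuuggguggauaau
The seeds of the arms differ. Neither list had a region at the Mir137 hairpin: the nearest cWT-specific region lay 1339 kb away and the nearest cKO-specific region 1839 kb away. The lists therefore give no reading of the deletion, and the genotypes are as labelled.

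Promoter sequences are shown for genes at which the lists differ, each over 300 bases (250 before to 50 after a start) from RefSeq, GRCm38.p6, written 5′ to 3′ on the gene's strand. In the first 4, CG dinucleotides are in capitals. They show the range from CpG-rich to CpG-poor starts. The window of Fos, an immediate early gene of the AP-1 family, at chr12:85473640-85473939 on the plus strand, lay wholly within a cKO-specific region and holds 20 CG. The window of Klf2, a zinc finger factor that restrains inflammatory genes, at chr8:72318812-72319111 on the plus strand, lay wholly within a cWT-specific region and holds 32 CG. The window of Runx1, a haematopoietic lineage factor, at chr16:92826025-92826324 on the minus strand, also lay wholly within a cWT-specific region and holds 2 CG. The window of Tlr1, a receptor for bacterial lipopeptides, at chr5:64932650-64932949 on the minus strand, was overlapped by a cKO-specific region over 236 bp and holds 9 CG.
Fos: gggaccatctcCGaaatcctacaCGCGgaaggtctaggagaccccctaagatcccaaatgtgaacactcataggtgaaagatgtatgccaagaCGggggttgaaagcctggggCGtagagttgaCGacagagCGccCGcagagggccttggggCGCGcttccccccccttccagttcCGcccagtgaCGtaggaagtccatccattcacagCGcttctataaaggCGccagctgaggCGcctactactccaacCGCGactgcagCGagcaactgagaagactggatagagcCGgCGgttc
Klf2: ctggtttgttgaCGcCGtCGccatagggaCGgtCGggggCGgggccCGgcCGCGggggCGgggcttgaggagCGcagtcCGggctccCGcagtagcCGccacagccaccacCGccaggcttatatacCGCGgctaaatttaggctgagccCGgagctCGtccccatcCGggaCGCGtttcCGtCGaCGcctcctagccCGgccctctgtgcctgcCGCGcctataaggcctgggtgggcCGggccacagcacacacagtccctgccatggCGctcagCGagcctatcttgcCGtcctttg
Runx1: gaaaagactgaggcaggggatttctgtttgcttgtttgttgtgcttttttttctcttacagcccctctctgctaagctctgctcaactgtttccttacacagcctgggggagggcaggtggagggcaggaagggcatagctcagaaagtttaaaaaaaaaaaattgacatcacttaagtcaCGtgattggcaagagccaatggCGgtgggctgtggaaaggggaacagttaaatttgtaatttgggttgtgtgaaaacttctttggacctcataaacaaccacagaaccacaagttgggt
Tlr1: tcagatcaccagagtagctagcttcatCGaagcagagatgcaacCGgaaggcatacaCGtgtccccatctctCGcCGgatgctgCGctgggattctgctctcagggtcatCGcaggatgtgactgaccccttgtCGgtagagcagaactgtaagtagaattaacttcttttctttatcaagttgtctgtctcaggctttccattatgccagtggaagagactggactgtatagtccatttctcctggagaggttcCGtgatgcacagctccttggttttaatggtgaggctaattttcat
Vav1 (an exchange factor for Rac) and Il1a (interleukin 1 alpha) carry a match to a microglial motif in a window that a cWT-specific region overlapped. In Vav1, at chr17:57278850-57279149 on the plus strand, the capitals mark GAGGAAGT, the ETS motif of PU.1, from base 240. In Il1a, at chr2:129309923-129310222 on the minus strand, they mark TGACTCA, a form of the AP-1 motif TGANTCA, from base 239.
Vav1: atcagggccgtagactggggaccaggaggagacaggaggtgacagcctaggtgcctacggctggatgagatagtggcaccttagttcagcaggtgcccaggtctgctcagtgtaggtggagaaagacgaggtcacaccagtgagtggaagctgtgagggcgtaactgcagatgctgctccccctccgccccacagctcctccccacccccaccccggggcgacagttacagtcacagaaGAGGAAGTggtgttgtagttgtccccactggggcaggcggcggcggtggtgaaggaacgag
Il1a: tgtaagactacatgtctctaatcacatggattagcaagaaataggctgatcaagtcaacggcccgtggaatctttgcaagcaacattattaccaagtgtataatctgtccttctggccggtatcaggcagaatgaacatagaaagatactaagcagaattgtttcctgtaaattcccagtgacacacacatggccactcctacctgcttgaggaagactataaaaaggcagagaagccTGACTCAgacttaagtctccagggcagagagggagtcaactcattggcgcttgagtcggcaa

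Across all windows, the promoters overlapped by either list were rich in CG. A ratio of observed to expected CG of at least 0.6 was found in 47.7% of all 21263 promoter windows, in 75.6% (interval 73.1 to 78.0%) of the 1230 overlapped by cWT-specific regions and in 82.5% (75.3 to 88.4%) of the 143 overlapped by cKO-specific regions. The 2 lists' intervals overlap. Median GC content was 56.3% in all windows, 61.3% in the cWT set and 63.3% in the cKO set. GAGGAAGT on either strand occurred in 3.13% of all windows, 3.01% of the cWT set and 3.50% of the cKO set. TGANTCA occurred in 6.99%, 4.80% and 5.59%. The DNA match to the miR-137-3p seed, AGCAATA, was in 1.69% of all windows and in 7 of the 1230 cWT windows (0.569%). None of the 143 cKO windows held it, with an upper bound of 2.55%. AGCAATA is poor in G and C, and both sets are richer in them than all windows. The part of base composition in the shares of AGCAATA was not tested. These matches describe the letters of the windows only.

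The lists differed in length far more than the numbering of their regions did. Counting from 0 to the highest number in a region's name gives at least 19936 numbered regions for cWT and 14340 for cKO, so 35.1% of the numbered cWT regions and 5.91% of the numbered cKO regions were listed. The numbers missing from the lists, 12941 and 13493, were close to each other. Listed regions were narrower in the cKO list, with a median of 348 bp against 435 bp. The middle part of the widths, between the lower and upper quartile, ran from 296 to 448 bp in the cKO list and from 334 to 574 bp in the cWT list. Regions under 300 bp made up 29.6% (26.6 to 32.8%) of cKO-specific and 14.5% (13.7 to 15.4%) of cWT-specific regions. Regions over 1000 bp were 201 of the cWT list (2.87%, 2.49 to 3.29%) and 1 of the cKO list (0.118%), at Pip4k2a.

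**Figure D1:**
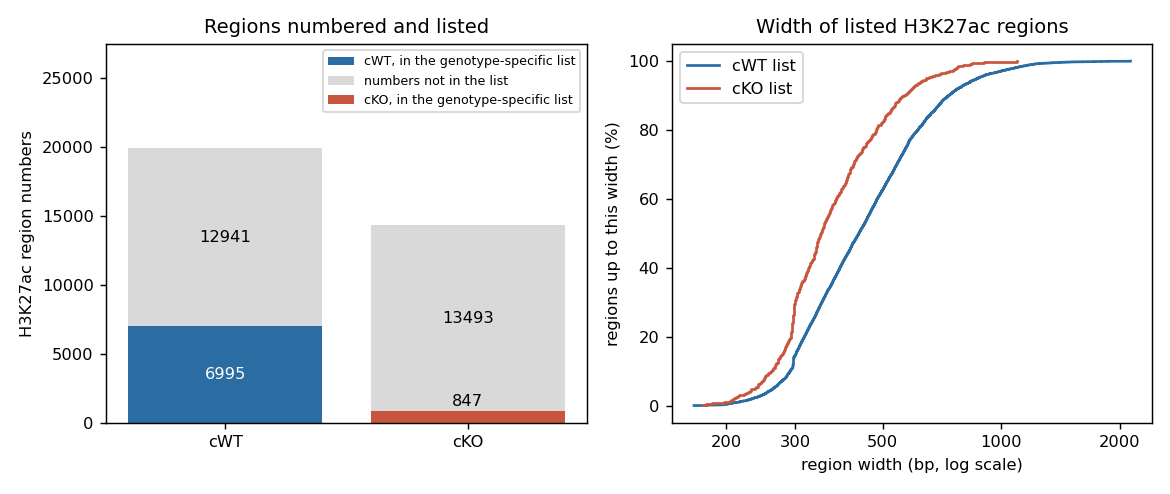
Left, the H3K27ac region numbers of each genotype, split into those in its genotype-specific list (coloured) and those missing from it (grey). Right, the cumulative share of listed regions by width (bp, log scale). The grey parts are 12941 and 13493 regions, and the cKO curve lies left of the cWT curve, with medians of 348 and 435 bp.

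Some of the genotype-specific regions lay side by side in the 2 lists. Of the cKO-specific regions, 67 (7.91%) overlapped 68 cWT-specific regions (0.972% of that list), by 3 to 241 bp. No overlap covered more than 29.4% of the cKO-specific or 27.6% of the cWT-specific region. Likewise, in the lists of the other 4 antibodies no cKO-specific region was covered beyond 29.9% by a region of the opposite genotype. The longest overlap was at Pip4k2a, a lipid kinase, where a cKO-specific region at chr2:19004842-19005935 met a cWT-specific one at chr2:19005695-19006878. At Med15, a Mediator subunit, the regions overlapped by 226 bp at the gene start. At Klf2 they overlapped by 178 bp, with the cKO-specific region (chr8:72317875-72318640) upstream of the cWT-specific one (chr8:72318463-72319297) that holds the promoter shown above. Kif2a, a kinesin, and Pde4a, a cAMP phosphodiesterase, had overlaps of 135 bp each, followed by Dip2b (116 bp), Lhfpl2 (112 bp), Arhgap22 (108 bp), Kif3b (100 bp) and Taok3 (91 bp). In all, 144 cKO-specific regions (17.0%) lay within 1 kb of a cWT-specific region, and 203 (24.0%) lay more than 100 kb from any. Whether a limit on overlap was used to select the regions is not stated. Overlapping or adjoining pairs are therefore not shown to be separate stretches of chromatin with opposite changes. They give a gene no single direction.

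**Figure D2:**
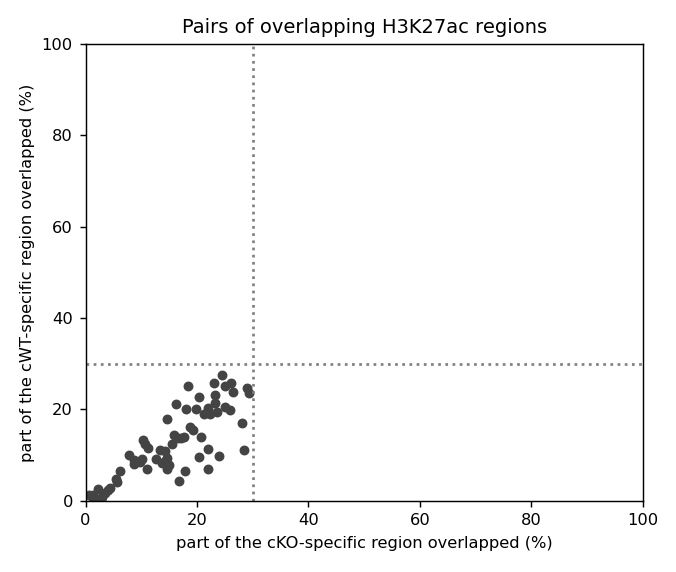
Each point is a pair of overlapping H3K27ac regions, 1 from each list, placed by the part of the cKO-specific region (horizontal axis, %) and of the cWT-specific region (vertical axis, %) that is shared. Dotted lines mark 30%: all points lie below both lines, up to 29.4% and 27.6%.

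By placement, regions of both lists fell mostly away from gene starts. A region was at a gene start when it lay within 2 kb of the start of a protein-coding gene. For genes without a known start, either gene end stood in for it. By this measure 30.1% (29.0 to 31.2%) of cWT-specific and 34.7% (31.5 to 38.0%) of cKO-specific regions were at starts. Regions inside genes but away from starts were 44.3% (43.1 to 45.5%) of the cWT list and 38.8% (35.5 to 42.2%) of the cKO list. Between genes lay 25.6% (24.6 to 26.7%) and 26.4% (23.5 to 29.6%). The difference in width between the lists was present in each class: the median width was 439, 435 and 430 bp at starts, inside and between genes in the cWT list, and 355.5, 341 and 350.5 bp in the cKO list. Windows of 1 Mb with at least 10 predicted genes, where near-identical gene copies lie together, held 4.13% (2.89 to 5.70%) of cKO-specific and 1.04% (0.819 to 1.31%) of cWT-specific regions. Counts in such windows are uncertain, because reads of near-identical copies cannot be placed with confidence. Leaving out Y and the mitochondrial genome, which held 3 and 2 regions, the cKO-specific share of regions was lowest on chromosome 13 (7.52%) and highest on chromosome 14 (16.3%). On chromosome X it was 10.7%, beside 10.8% over the genome.

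**Figure D3:**
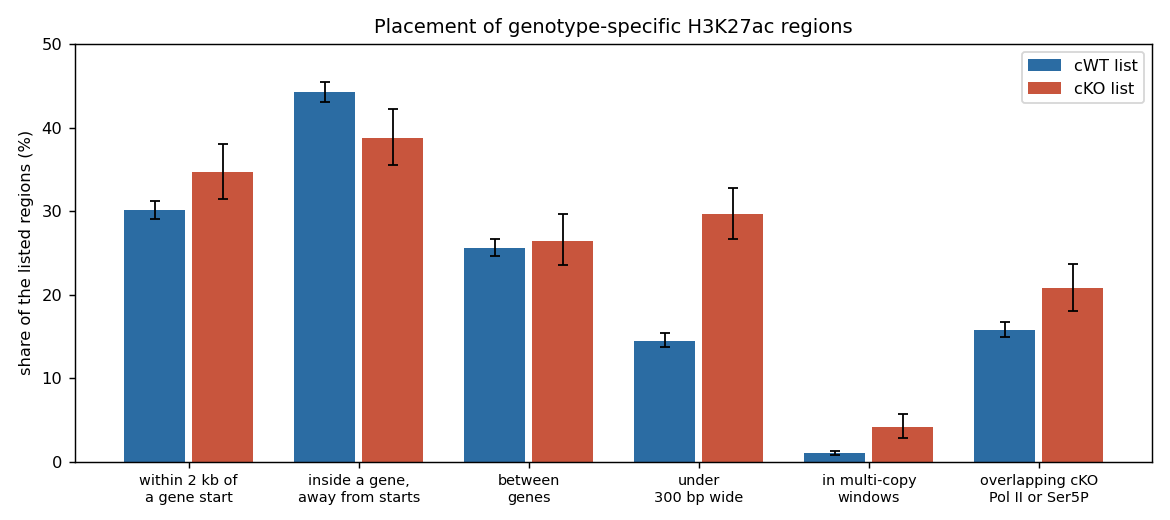
Bars give the share of the 6995 cWT-specific (blue) and 847 cKO-specific (red) H3K27ac regions in each class, and error bars the exact 95% Clopper-Pearson interval for counting error. Regions under 300 bp, 29.6% against 14.5%, and regions in multi-copy windows, 4.13% against 1.04%, have intervals that lie apart.

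Assigned to the protein-coding gene with the nearest end within 100 kb, the lists reached 4608 genes, 4285 through the longer cWT list and 710 through the cKO list. Of 21887 protein-coding genes, 3898 (17.8%) had cWT-specific regions only, 323 (1.48%) had cKO-specific regions only, and 387 (1.77%) had both. With assignment within 10 kb, 176 had both. These percentages are the background for the gene groups that follow. The cWT list is the longer one, and 10.8% of all listed H3K27ac regions were cKO-specific. A lean to the cWT list is therefore shared by all genes and is not particular to a group. Because 1.48% is low, a small group with no member in the cKO list alone lies near it. The background includes genes that microglia do not express. Of regions centred inside a gene, 87.7% in the cWT list and 88.8% in the cKO list went to a gene that holds them, and the others went to a neighbour or, in the middle of long genes, to none. For this reason 297 genes that hold a region were counted as having none. Genes with listed regions were longer. The median length was 30.4 kb for genes with cWT-specific regions only, 25.2 kb with cKO-specific regions only and 51.1 kb with both. It was 14.4 kb with neither, and the part of gene length in these counts was not tested. Of the 387 genes with both, 176 had more cWT-specific than cKO-specific regions and 15 had more cKO-specific ones. In 122 of them (31.5%) the closest regions of the 2 lists overlapped or lay within 1 kb.

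Genes with many regions were found almost only in the cWT list, which holds 6995 regions against 847 in the cKO list. The part of list length in this contrast was not tested. A single region was assigned to 68.4% of genes in the cWT list and 92.3% in the cKO list, while 87 genes had 5 or more cWT-specific regions and none had more than 3 cKO-specific regions. Nek7, a kinase that binds NLRP3 in inflammasome assembly, had 13 cWT-specific regions. All 13 lay between a region centred 3.06 kb upstream of the start and one ending 70.72 kb into the gene, which spans 135.92 kb. Camk2d, a calcium-dependent kinase, had 10 inside the gene, and beside the last of these a cKO-specific region at chr3:126829938-126830241. Med13l, a subunit of the Mediator kinase module, had 10, of which 5 lay inside the gene and 1 at the start. Asap1, an Arf GTPase-activating protein, had 9, and Rapgef5, Gnaq, Rnf150 and Arhgap22 had 8 each. Gnaq is the G protein alpha subunit of Gq, and Arhgap22 acts on Rac. Rnf216 and St6gal1 were among 13 genes with 7. The 21 genes with at least 7 had a median length of 174 kb, from 52.6 kb at Anxa3 to 517.8 kb at Elmo1, beside 17.2 kb over all protein-coding genes.

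In the cKO list Lrrk1, Zfp516, Dip2b, Gm3500 and Gm46963 had 3 regions each, the most in that list. Lrrk1, a kinase, also had 5 cWT-specific regions, and Dip2b also had 7. Dip2b showed the 2 lists interleaved along 1 gene, with cKO-specific regions 22.48, 93.29 and 114.53 kb from the start among cWT-specific regions from 10.67 to 177.0 kb. Gm3500 had no cWT-specific region. It is a predicted gene on chromosome 14 in a family of near copies, so its regions are uncertain.

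**Figure D4:**
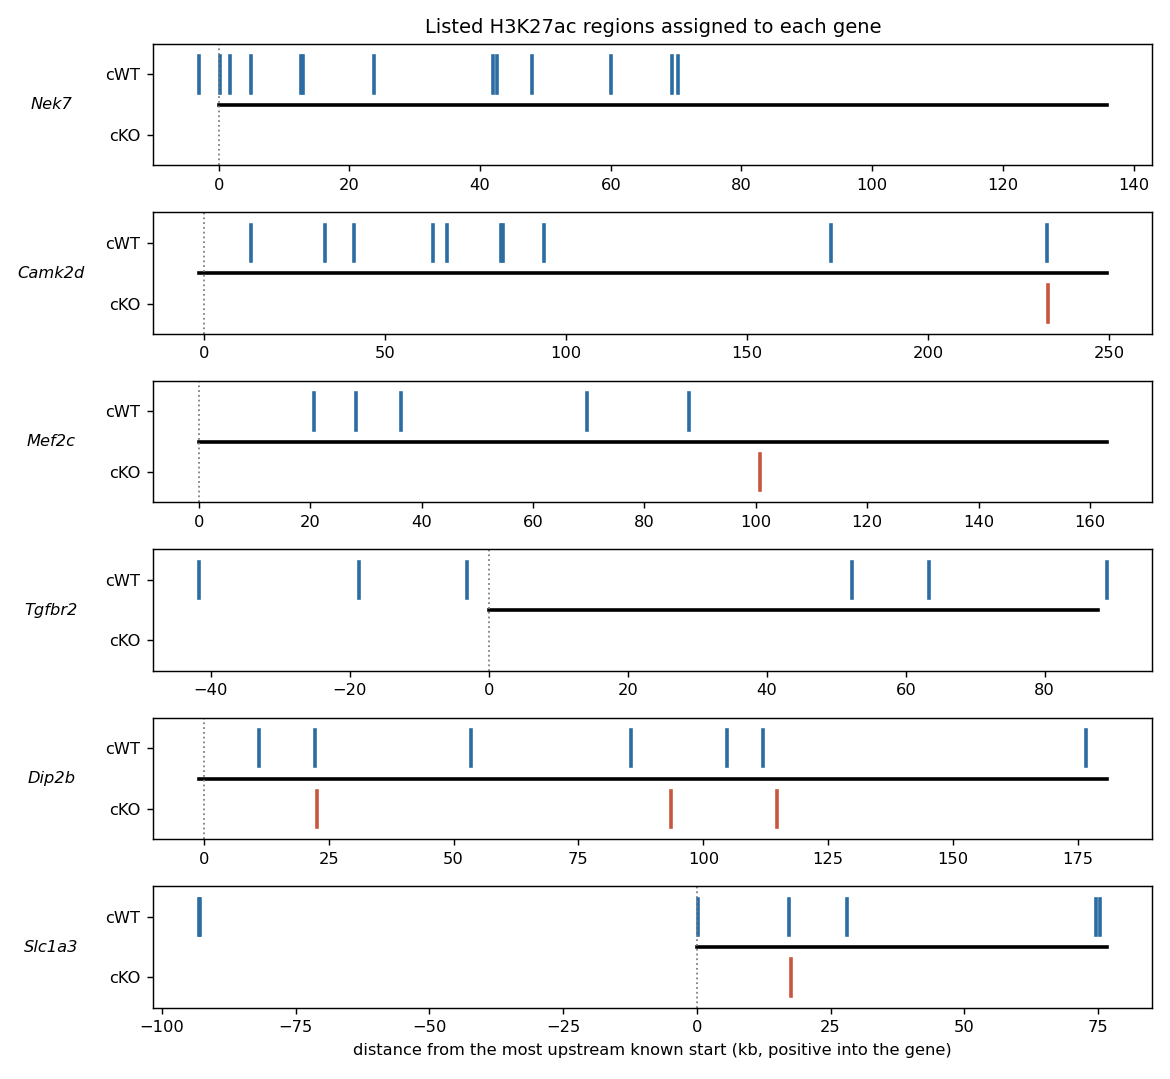
Positions of listed H3K27ac regions assigned to 6 genes, as distance in kb from the most upstream known start, with cWT-specific regions above and cKO-specific regions below the gene (black line). Nek7 and Tgfbr2 have cWT-specific regions alone (13 and 6), while Camk2d, Mef2c, Dip2b and Slc1a3 have cKO-specific regions as well (1, 1, 3 and 1).

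Runs of neighbouring regions, with at least 3 regions and gaps no longer than the stitching distance commonly used to call super-enhancers, numbered 212 in the cWT list and held 699 of its regions (9.99%). With gaps of at most 5 kb they numbered 58, and among regions of at least 300 bp 137. The cKO list, with 847 regions against 6995, had 1, at Gm46963, which held 0.354% of its regions. The part of list length in the number of runs was not tested. The longest cWT runs by number held 7 regions over 27.2 kb at the start and 5′ part of Nek7 (chr1:138595803-138622971) and 7 over 41.0 kb at Ubac2 and Gpr183, the latter an oxysterol receptor that guides immune cells. A further Nek7 run held 6 regions over 29.0 kb. Runs at Cfap74 (6 regions), Rrp1b (5) and Ttc7 (5) followed. No region of the first Nek7 run had a deposited p below 0.685.

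Homeostatic microglia genes, the set that resting adult microglia express, were mostly in the cWT list. Of 33 members, 21 (63.6%, beside 17.8% of all genes) had cWT-specific regions only, 4 had both and none had cKO-specific regions only, and the median was 1 cWT-specific region per gene, beside 0 over all genes. The 4 with both stand beside 1.77% of all genes. The members had 46 cWT-specific regions, 18 of them at gene starts, and 4 cKO-specific regions, beside a cKO-specific share of 10.8% over both lists. Mef2c, a transcription factor that restrains microglial activation, had 5 cWT-specific regions, all inside the gene, and 1 cKO-specific region 100.54 kb from the start. Itgb5, an integrin that binds vitronectin, had 4, including one at the start (chr16:33829824-33830616). Slco2b1, a transporter, and Gpr34, a lysophosphatidylserine receptor, had 3 each. P2ry12, the ADP receptor that steers process movement, had 3 inside the gene. Sall1, which maintains microglial identity, had 3 at or inside the gene and 1 cKO-specific region 90.55 kb away. Entpd1, which hydrolyses extracellular ATP, had 2, and its cKO-specific region at a start within the gene (chr19:40660584-40660912) overlapped a cWT-specific H3K4me3 region. Selplg, a selectin ligand, had 1 of each.

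Among 35 lineage transcription factors of myeloid cells, 16 (45.7%) had cWT-specific regions only, 6 had both and 2 had cKO-specific regions only. Spi1, which encodes PU.1, had 1 cWT-specific region of 315 bp, at chr2:91084363-91084677. Zeb2, a repressor needed for macrophage identity, had 5 cWT-specific regions. Cebpb and Ets1 had 4 each. One of the Cebpb regions was at its start and the other 3 lay up to 49.96 kb away. Runx1 had cWT-specific regions at the start shown above and 1 more inside the gene, with a cKO-specific region between them. The pair in the cKO list alone were the ETS factors Elf4 and Fli1, with 1 region each. The Elf4 region overlapped regions of the cWT-specific H3K4me3 list and the cKO-specific Pol II Ser5P list.

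Of 34 AP-1, Klf and immediate early genes, 18 (52.9%) had cWT-specific regions only, 3 had both and none had cKO-specific regions only. The members had 29 cWT-specific and 3 cKO-specific regions, beside a cKO-specific share of 10.8% over both lists. This group has short genes, with a median length of 8.16 kb beside 17.2 kb over all genes. Fosb had 3 cWT-specific regions, of which one lay at its start. Klf12, Dusp1 (a phosphatase that ends MAP kinase signalling) and Jdp2 (an AP-1 repressor) had 2 each. The Jdp2 regions lay outside the gene, 28.65 and 8.29 kb from its nearer end. Fos, Klf2 and Klf7 were the members with both. At Fos the cKO-specific region was over the promoter and the cWT-specific region (chr12:85489282-85489674) 15302 bp further on. The promoter region also overlapped a cWT-specific H3K4me3 region, and the Klf2 promoter's cWT-specific region overlapped a cKO-specific H3K4me3 region.

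Most genes of innate sensing (19 of 35) and of its NF-kB output (18 of 33) had no listed region. Of the others, most were in the cWT list and fewer in the cKO list alone. In the Toll-like receptor, C-type lectin and inflammasome group, 12 of 35 (34.3%) had cWT-specific regions only, 3 had both and 1 had cKO-specific regions only. After Nek7 came Ly86, a partner of the receptor RP105, with 5 cWT-specific regions and Nlrp3, the inflammasome sensor, with 3 inside the gene. The gene in the cKO list alone was Tlr4, the lipopolysaccharide receptor, with a region at its start (chr4:66828781-66829158). At the Tlr1 start the cKO-specific region (chr5:64932714-64933122) and a cWT-specific one were 58 bp apart. At the start of Ripk2, the kinase downstream of NOD receptors, they overlapped by 52 bp. Of 33 NF-kB pathway and cytokine genes, 11 (33.3%) had cWT-specific regions only, 1 (Nfkb1) both and 3 cKO-specific regions only. Those 3, beside a background of 1.48%, were the inhibitors Nfkbia and Nfkbie and the cytokine Osm, with 1 region each. The Nfkbie and Osm regions were at gene starts and overlapped cKO-specific Pol II Ser5P regions, whereas the Nfkbia region lay 15.3 kb from the gene. With cWT-specific regions, Il1a, Ikbkb and the NF-kB inhibitor Tnfaip3 had 2 each.

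Phagocytosis receptor and lysosome genes had cWT-specific regions only in 20 of 36 members (55.6%), both in 2 and cKO-specific regions only in none. Elmo1, which activates Rac with DOCK proteins during engulfment, had 7 cWT-specific regions and 1 cKO-specific, all inside the gene. Dock2 had 4 and Ctsc, cathepsin C, had 3. Lipid and cholesterol handling genes had 16 of 34 (47.1%) with cWT-specific regions alone and 2 in both, with 4 regions at Plcg2 and 3 at the cholesterol exporter Abca1. Chemokine and chemokine receptor genes had 14 of 32 (43.8%), led by Ccr1 with 4. Cxcr2 was in the cKO list only, and Ccl2 in both. Complement and Fc receptor genes had 10 of 24 (41.7%), led by C5ar2 with 4, and the integrin chain Itgb2 had a cKO-specific region inside the gene. Antigen presentation genes had 6 of 22 (27.3%), led by the costimulator Cd86 with 3, and the class Ib gene H2-T23 was in the cKO list only. In the purinergic and potassium channel group the count was 8 of 31 (25.8%), with 5 in both and 1, P2rx7, in the cKO list only. P2rx7, the ATP-gated channel upstream of NLRP3, had 2 cKO-specific regions, at its start (chr5:122644103-122644695) and 5.24 kb from the gene.

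TGF-beta pathway genes had cWT-specific regions only in 11 of 31 members (35.5%), both in 1 and cKO-specific regions only in 1. Tgfbr2, the type II receptor, had 6 cWT-specific regions from a region centred 41.78 kb upstream of its start to one ending 89.16 kb downstream of it, none within 2 kb of the start. The corepressor Ski had 4, all inside the gene. Smad3, a signal transducer of the pathway, had 2 and 1 cKO-specific region, all inside the gene. Acvr2a, an activin receptor, was in the cKO list only. Interferon response genes had 12 of 34 (35.3%) in the cWT list only and none in the cKO list, led by Irf2 with 3 regions. Disease-associated microglia genes had 9 of 32 (28.1%), none in the cKO list, led by Cd9 and Ccl6 with 3 each. Over all genes, 1.48% had cKO-specific regions only and 1.77% both, so none in groups of this size lies near the background. Glycolysis and hypoxia genes had 9 of 26 (34.6%) with cWT-specific regions alone and 2 in both, and Pfkfb3, which raises glycolytic flux, had 7 regions.

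The enzymes that write, erase and read acetylation were examined because they act on the mark itself. Of 33, 13 (39.4%) had cWT-specific regions only, 1 both and 2 cKO-specific regions only. Hdac5 had 4 cWT-specific regions inside the gene, and Ep300, which encodes p300, had 3. The deacetylase genes Hdac2 and Hdac4 were in the cKO list only. The Hdac4 region was inside the gene and the Hdac2 region 56.23 kb away. Mediator subunit genes had 14 of 33 (42.4%) with cWT-specific regions alone and 2 (Med15 and Cdk19) in both. After Med13l, Cdk19, a kinase of the same module, had 4 regions, and at its start a cKO-specific region lay 262 bp from a cWT-specific one. Med8 was in the cKO list only. Of 28 genes of the microRNA pathway or reported as miR-137 targets, 11 (39.3%) had cWT-specific regions only, 2 (Tcf4 and Cdk6) both and 1 cKO-specific regions only. That gene was Xpo5, which exports microRNA precursors from the nucleus, with a region at its start (chr17:46202843-46203114). Cytosolic ribosomal protein genes, which nearly all cells express, had 6 of 33 (18.2%) in the cWT list only and were short, with a median of 3.67 kb.

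**Figure D5:**
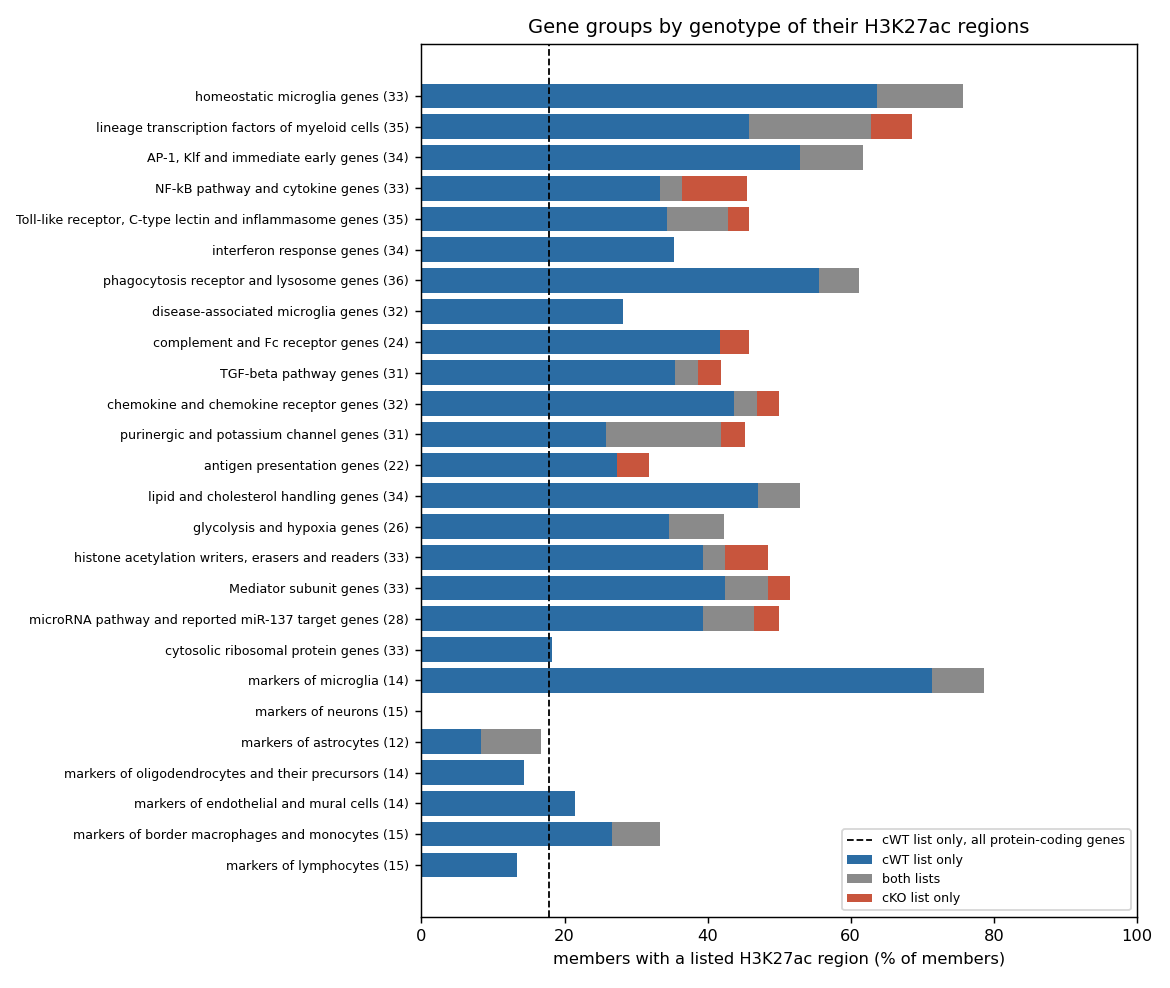
For each gene group shown (number of members in brackets), bars give the share of members with cWT-specific regions only (blue), with both (grey) and with cKO-specific regions only (red). The dashed line is 17.8%, the share of all protein-coding genes with cWT-specific regions only, which homeostatic genes (63.6%) pass and ribosomal protein genes (18.2%) nearly equal.

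Cell type markers were looked up in the lists, which hold genotype-specific regions only. A marker acetylated alike in both genotypes may be absent from them, so they cannot check what the sorted cells were. Of 14 microglia markers, 10 had cWT-specific regions only, 1 (Sall1) had both, and 3 had none. None of 15 neuronal markers had a region. Over all protein-coding genes, 21.1% had a region of either list. Markers of other types had regions in 2 of 12 for astrocytes, 2 of 14 for oligodendrocytes, 3 of 14 for endothelial and mural cells, 5 of 15 for border macrophages and monocytes and 2 of 15 for lymphocytes. The astrocyte glutamate transporter gene Slc1a3 had 7 cWT-specific regions and 1 cKO-specific region, the most of any marker. Of the 7, 5 lay inside the gene, and the others lay end to end far upstream of it. The endothelial adhesion gene Pecam1 and the myelin gene Mbp had 3 cWT-specific regions each. The cKO-specific Slc1a3 region (chr15:8693084-8693358) overlapped a cWT-specific one by 47 bp. The part of other cells in the lists was not tested.

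Polymerase regions that overlapped either H3K27ac list were mostly cKO-specific, as the polymerase lists were as a whole. Of the 6995 cWT-specific H3K27ac regions, 1105 (15.8%, 14.9 to 16.7%) overlapped a cKO-specific Pol II or Pol II Ser5P region and 63 (0.901%) a cWT-specific one. Of the 847 cKO-specific H3K27ac regions, 176 (20.8%, 18.1 to 23.7%) overlapped a cKO-specific polymerase region and 17 (2.01%) a cWT-specific one. The polymerase lists are themselves unequal, with 4647 and 6163 cKO-specific against 394 and 127 cWT-specific regions, and the part of that inequality in the overlaps was not tested. Among regions at gene starts, overlap with cKO-specific polymerase was 30.9% in the cWT and 33.0% in the cKO list. Away from starts it was 9.30% and 14.3%. Overlap with cKO-specific H3K4me3 regions was 2.92% (2.53 to 3.34%) in the cWT and 6.02% (4.52 to 7.84%) in the cKO list. In the cWT list 80.0% of regions, and in the cKO list 71.4%, overlapped no region of another antibody. H3K27ac and polymerase share a catalogue number in the protocol, and what this does to the overlaps was not tested.

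Few regions had a low deposited p-value, and what that value tests is not stated. It was under 0.05 in 36 of the 7842 regions (0.459%), 21 cWT-specific and 15 cKO-specific. Of these 36, 23 (63.9%, 46.2 to 79.2%) overlapped a region of another antibody, beside 1644 of all 7842 (21.0%). The lowest in the cWT list was at chr17:13305831-13306383, 48.5 kb from Tcp10c and between genes, with p = 6.77e-09 and the authors' signal of 60.5. It overlapped a cKO-specific Pol II Ser5P region. Next came a region inside Lars2, a mitochondrial leucyl-tRNA synthetase gene, which overlapped cWT-specific Pu.1 and Ser5P regions, then regions 332 kb from Alkbh8 and 636 kb from Epha7, at the start of Leng8 and inside Flt1. The lowest in the cKO list was inside Gm525 (chr11:89081628-89082144). Its deposited p-value was 8.47e-07. It was followed by regions 61.1 kb from Axin2, 220 kb from Ajap1, inside Ank1 and near the starts of Brox and Tmub2. The Ank1 region overlapped a cWT-specific H3K4me3 region and the Brox region cWT-specific Pol II and Ser5P regions. By the authors' signal, the highest also included Gm32584 and Lrr1 in the cWT list and Dnttip2 and Grk5 in the cKO list. Flt1 was among the endothelial markers. Whether reads could be placed with confidence at the regions named here was not tested. A low p-value or a high signal does not show that they could.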

How the data were processed

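CUT&Tag data of 6 H3K27ac samples (3 per genotype) were analysed from 2 deposited lists, with the 8 lists of the other antibodies for overlaps. Per the submitters' processing notes the tools included HOMER 4.11, bedtools 2.30.0, MACS2 2.2.7.1 and Bowtie2 2.4.4, with builds GRCm38 and mm10. How the authors combined replicates and selected regions is not stated. The deposited score follows the logarithm of the deposited p-value in every region, kept between 1 and 1000. The deposited signal and p-value ranked regions within a list only.

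Genes came from RefSeq (GRCm38.p6, 21887 protein-coding). A known start was given for 79.9%, and either gene end stood in for the others. Regions went to the gene with the nearest end within 100 kb. Exons and UTRs were not annotated. The design planned no tests. Functions were tested on simulated data, with Python 3.11.15, pandas 2.3.3 and scipy 1.17.1.

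Members and gene lists were chosen with earlier results of these data known. Of 684 symbols, 683 matched. Named were, per list, the 10 genes with most regions, 6 regions by p and by signal, and up to 4 members per gene group; the 10 closest genes with both, the 6 runs with most regions, Mir137, Spi1 and Jdp2. Vav1 and Fli1 were named after their values were seen. Some genes and 1 gene group that this rule selects are not reported here.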

Additional observations from a re-analysis of the deposited data

How the results depend on the processing

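No paired analysis was possible because the lists hold no value per replicate, and for the same reason no replicate could be left out in turn. Of 36 alternatives, 20 stayed within the counting interval or 1.5 times the count, and 16 did not. Among those that stayed, the cKO share in the part of each list with the lowest p could not move. The same fraction of each list was taken. The cKO share of regions, 10.8%, was 9.06% for regions of at least 300 bp, 41.7% for those with p under 0.05, 14.3% for those named primary, 8.84% of base pairs and 10.1% without regions overlapping the other list (chosen after seeing the data). With windows of 1 kb, 5 kb and, chosen after seeing the data, known starts only, the gene-start share was 26.3, 37.3 and 24.9% in the cWT list and 30.2, 41.2 and 28.1% in the cKO list. It was higher in the cKO list under each of these, but the counting intervals of the lists overlapped in each. Genes with both numbered 176 when assigned within 10 kb. Runs numbered 58 with gaps of 5 kb and 137 with regions of at least 300 bp. Polymerase overlap was 11.2% when it covered at least 50% of the region and 19.9% within 1 kb. The cause of these shifts was not tested. Touching regions formed 200 stretches in the cWT list and 7 in the cKO list, each with 1 shared signal, so some counts split a wider stretch. Depth is unknown, so an unlisted region is not shown to lack acetylation.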
